A study of Mus musculus with 12 samples.

Results

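The genes of the integrated stress response and of amino acid supply were followed in the mouse macrophage line RAW264.7, given 40 mM added NaCl, LPS at 10 ng/ml, both or neither for 24 h. There were 36 of them, grouped by function: 8 transcription factors and regulators, 4 stress effectors, 9 enzymes of amino acid synthesis and one-carbon metabolism, 6 amino acid transporters and 9 cytosolic aminoacyl-tRNA synthetases. All 36 had at least 1 probe among the 24185 gene symbols on the array, and the brightest probe stood for each gene. To be tested, a gene needed that probe to be detected well above background throughout at least 1 group, on each of its 3 arrays. This held for 35 of the 36 genes, among 13860 genes tested in all. The exception was Vldlr, a lipoprotein receptor with 2 probes, which was not well above background on any array.

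Total RNA was hybridised to 12 1-colour arrays, 3 for each of 4 groups. The HS+LPS group had both additions, the NS+LPS group LPS without added salt, the HS group added salt without LPS, and the NS group neither. The labels give the groups only as these letters, and HS was read as the cells with added NaCl. They give no genotype, all groups are 1 cell line, and they do not say whether replicates were separate cultures. The spread behind each p-value is that between arrays and may be technical.

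In the integrated stress response, kinases that sense amino acid shortage, misfolded protein in the endoplasmic reticulum, viral RNA or haem deficiency phosphorylate the translation initiation factor eIF2. General protein synthesis then slows while the mRNA of Atf4 is translated more, and the ATF4 protein switches on genes for amino acid import, amino acid synthesis and tRNA charging, together with the regulators Ddit3 (CHOP), Trib3 and Ppp1r15a that shape how the response ends. Because Atf4 is controlled largely at translation, its RNA need not follow its activity. In macrophages, LPS acts through TLR4 and sets off an inflammatory programme with a high demand for protein synthesis.

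ATF4 and its partner C/EBP proteins bind a composite sequence, the C/EBP-ATF response element (CARE). Its letters were searched as TGATGNAA on both strands of the RefSeq promoter windows, which run from 250 bases before to 50 bases after each start site on GRCm38.p6. Of the 36 genes 30 matched a window, and 12 of these 30 (40%) held the letters, against 4.51% of all 27025 genes with a window. The genes were picked as genes of the response that ATF4 drives, so the higher share is not a result of these arrays and was not tested. The search also covered the cyclic AMP response element TGACGTCA, which overlaps no CARE letters here and was found in the window of Ppp1r15a alone among the 30, against 2.03% of all genes. The 12 genes with CARE letters were Atf3, Nupr1, Trib3, Chac1, Vldlr, Asns, Pycr1, Slc7a11, Slc1a4, Aars, Gars and Yars. A match is only a run of letters and shows neither binding nor use. One stretch upstream of the start site is given for each role. That of Nupr1 was added as the only gene that passed the test as higher with added salt alone. Capitals mark the CARE letters, or their complement where the match lies on the other strand, and each is printed along the strand of its gene.
Atf3 (transcription factor, chr1:191183410-191183469, minus strand): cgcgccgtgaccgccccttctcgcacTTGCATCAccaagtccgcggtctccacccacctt
Nupr1 (regulator, chr7:126625547-126625606, minus strand): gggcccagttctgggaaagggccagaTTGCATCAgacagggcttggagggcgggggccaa
Chac1 (stress effector, chr2:119351023-119351082, plus strand): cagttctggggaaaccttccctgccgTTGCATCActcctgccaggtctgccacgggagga
Asns (enzyme, chr6:7693210-7693258, minus strand): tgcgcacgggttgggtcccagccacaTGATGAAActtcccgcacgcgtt
Slc7a11 (transporter, chr3:50443637-50443696, minus strand): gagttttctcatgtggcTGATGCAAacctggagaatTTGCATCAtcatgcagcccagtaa
Aars (synthetase, chr8:111033704-111033763, plus strand): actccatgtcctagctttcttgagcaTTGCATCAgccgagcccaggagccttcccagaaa

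The same 8 letters, TTGCATCA, stood in the stretches of Atf3, Nupr1, Chac1, Slc7a11 and Aars, and Slc7a11 carried a second match in the other orientation. The match of Asns, TGATGAAA, lay closest to the start site of those printed, at position -23. In the human gene this element is known as the nutrient-sensing response element.

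**Figure D1:**
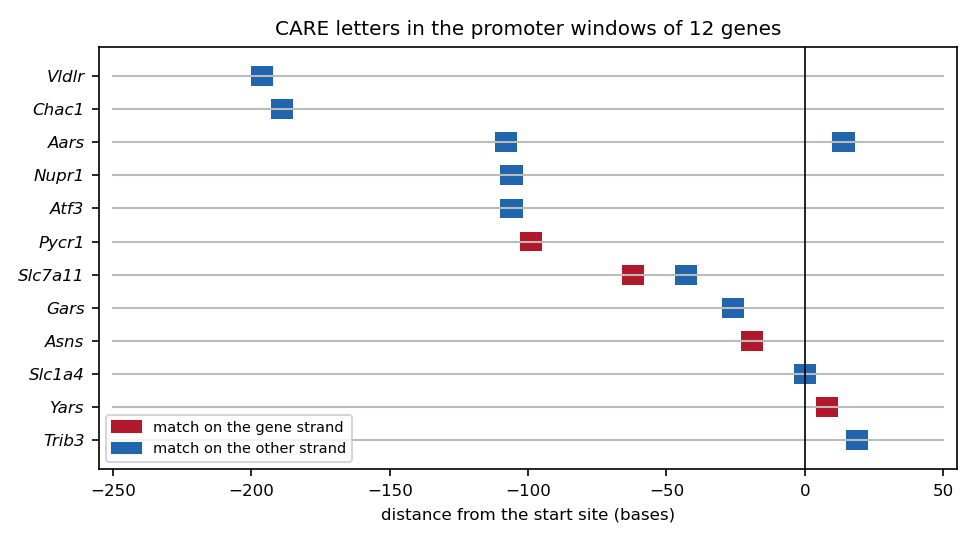
Position of the CARE letters TGATGNAA in the promoter windows of the 12 genes that held them, as distance from the RefSeq start site in bases. Grey lines are the windows, boxes the matches, coloured by strand; Slc7a11 and Aars have 2 matches each and the others 1.

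Signals are given as relative signal, the processed intensity of the probe divided by the 75th percentile of its array, so that a value of 1 lies at that percentile. Probes bind with different strength, so relative signals are compared between groups for 1 gene and never between genes. The 75th percentile itself lay between 411 and 438 intensity units on the HS+LPS arrays, 621 and 635 on the NS+LPS arrays, 613 and 656 on the HS arrays, and 641 and 783 on the NS arrays. The HS+LPS arrays were all on 1 further slide with a later scan day, so in every comparison that uses them group and slide cannot be told apart. The HS and NS arrays shared 1 slide with NS+LPS replicates 1 and 2, while NS+LPS replicate 3 was on a slide of its own. Within the shared slide 27 of the 35 genes were called higher and 1 lower in NS+LPS than in NS cells. Of all 13860 genes, 3651 were called higher and 4700 lower in that fit. Of the macrophage markers, 9 were measured and all 9 were well above background on all 12 arrays. Of 20 markers of T, B, fibroblast, epithelial and endothelial cells 9 were above background on no array, among them the 4 epithelial ones. Cd3e, Cd4, Cd79b, Pecam1 and Kdr were above it on all arrays. The summed relative signal of the T cell markers was 2.398 to 2.56 in HS+LPS, 2.36 to 2.86 in NS+LPS, 2.74 to 3.01 in HS and 2.301 to 2.53 in NS cells. That of the endothelial markers was 3.44 to 3.63 in HS+LPS, 3.14 to 3.54 in NS+LPS, 2.75 to 3.45 in HS and 2.57 to 3.14 in NS cells. The B cell markers summed to 0.296 to 0.329 in HS+LPS, 0.233 to 1.65 in NS+LPS, 0.255 to 0.298 in HS and 0.234 to 0.276 in NS cells, with 1 NS+LPS array high for Cd79b (1.56). The sums of the fibroblast and epithelial markers stayed at or below 0.199 on every array. Those of the macrophage markers were 1167 to 1213 in HS+LPS, 993 to 1044 in NS+LPS, 934 to 1029 in HS and 962 to 1008 in NS cells. The part of these markers in the results was not tested. In RNA from whole cultures, fewer cells of a kind and less RNA per cell cannot be told apart.

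**Figure D2:**
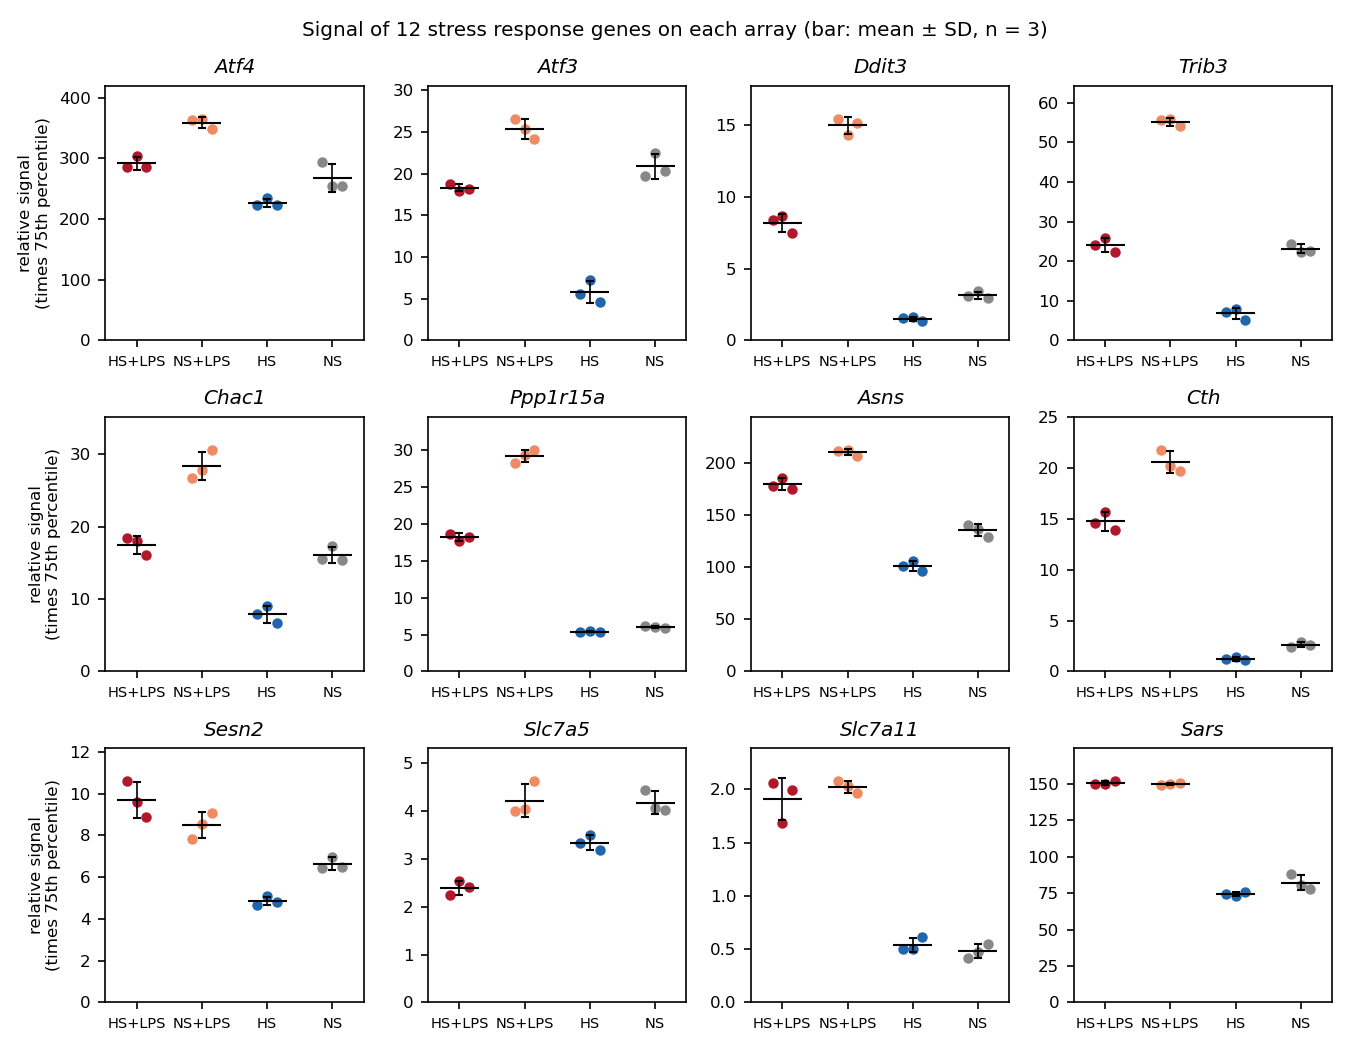
Relative signal (times the 75th percentile of the array, linear axis from 0) of 12 genes on each of the 12 arrays, with the mean and SD of the 3 arrays of a group. Atf3, Ddit3, Trib3, Chac1 and Cth lie lowest in the HS group, and the NS+LPS mean is the highest for all genes shown except Sesn2 and Sars.

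Added salt without LPS lowered most of these genes. Of the 35 tested, 24 were called lower in HS than in NS cells (adjusted p under 0.05), against 18.8% of all 13860 genes, and 1 was called higher, against 18.2% of all genes. The median log2 difference was -0.25 over the 35 genes and 0.02 over all genes tested. The fall was steepest for Atf3 and Trib3, at 3.65-fold and 3.44-fold lower. Cth, Ddit3 and Chac1 followed at 2.13-fold, 2.1-fold and 2.05-fold lower.

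Among the transcription factors and regulators 7 of 8 fell and 1 rose. Atf3, a stress-induced repressor and activator of the ATF/CREB family, gave a relative signal of 5.52, 7.29 and 4.61 in HS cells, against 19.7, 22.5 and 20.3 in NS cells. Its probe lies at chr1:192994547-192994606 on mm9, and its log2 difference was -1.87 (SE 0.13, adjusted p = 6.94e-06). No HS array came near the NS arrays. Trib3, a pseudokinase that restrains ATF4 and AKT signalling, had 7.196, 8.03 and 5.27 in HS cells, against 24.4, 22.4 and 22.6 in NS cells (probe at chr2:152163161-152163220 on mm9). The difference was -1.78 (SE 0.13, adjusted p = 6.99e-06), again with a wide gap between the groups. Ddit3, which encodes CHOP, a factor tied to cell death under prolonged stress, had 1.53, 1.598 and 1.36 in HS cells, against 3.07, 3.43 and 2.93 in NS cells, a log2 difference of -1.07 (SE 0.08, adjusted p = 8.43e-06).

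Atf4 itself changed far less than these 3 genes. Its relative signal was 223, 234 and 223 in HS cells, against 294, 254 and 255 in NS cells, a log2 difference of -0.24 (SE 0.059, adjusted p = 0.0103). The groups did not overlap, though 1 NS array stood above the other 2. A second, dimmer probe of Atf4 gave -0.34. Atf5, a related factor that is also controlled at translation, had 26.7, 26.6 and 23.3 in HS cells, against 44.6, 42.5 and 40 in NS cells (-0.73, adjusted p = 5.83e-05). Cebpg, a C/EBP protein that pairs with ATF4, had 1.19, 1.16 and 1.03 in HS cells, against 1.61, 1.53 and 1.53 in NS cells (-0.47, adjusted p = 0.00112). Ppp1r15a encodes GADD34, the phosphatase subunit that removes the phosphate from eIF2, and it fell by 0.16 on the log2 scale. Nupr1, a small stress-induced chromatin protein, was the exception, with 20.5, 20.7 and 19.7 in HS cells, against 19.1, 18.7 and 17.8 in NS cells (0.13, adjusted p = 0.0328). That call was lost without HS replicate 1 (0.13), HS replicate 2 (0.12), NS replicate 2 (0.14) or NS replicate 3 (0.10).

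All 3 stress effectors tested fell. Chac1, which breaks down glutathione, had 7.95, 9.02 and 6.69 in HS cells, against 15.6, 17.3 and 15.4 in NS cells, a log2 difference of -1.04 (SE 0.11, adjusted p = 5.09e-05). Sesn2, a leucine sensor that holds back mTORC1, had 4.67, 5.08 and 4.802 in HS cells, against 6.42, 6.99 and 6.49 in NS cells (-0.45, adjusted p = 0.00111). Stc2, a secreted glycoprotein, was lower by a smaller step (-0.19, adjusted p = 0.0102). None of these 3 genes had overlapping groups, a trait that was not counted over all genes.

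Of the 9 enzymes 5 fell and 4 were not called. Cth makes cysteine from cystathionine, the last step of transsulfuration, and it had 1.23, 1.42 and 1.08 in HS cells, against 2.43, 2.85 and 2.62 in NS cells (probe at chr3:157560183-157560242 on mm9). Its log2 difference was -1.09 (SE 0.098, adjusted p = 2.54e-05), and a second probe gave -1.02. Asns, asparagine synthetase and a classical ATF4 target, had 101, 106 and 96.5 in HS cells, against 140.1, 137 and 129 in NS cells (-0.42, adjusted p = 9.80e-05). Mthfd2, the mitochondrial folate enzyme, had 9.33, 9.48 and 8.96 in HS cells, against 13.3, 11.9 and 12 in NS cells (-0.42, adjusted p = 0.00356). The HS and NS arrays were apart for all 3. Psph, the last enzyme of serine synthesis, fell by 0.25, while the 2 enzymes before it did not pass the test, Phgdh at -0.09 and Psat1 at 0.15. The brightest probe of Phgdh is placed by the annotation on chromosome 17 rather than at the gene on chromosome 3, and it was called lower with quantile normalization or the deposited table (both -0.15). Psat1 was called higher without NS replicate 1 (0.20) and among genes above background on all 12 arrays (0.15). Pycr1, which makes proline, had 0.561, 0.587 and 0.514 in HS cells, against 0.7895, 0.8504 and 0.852 in NS cells (-0.59, adjusted p = 4.92e-05). Its other probe, which carries the RefSeq accession but is much dimmer, gave -1.32 and was not called (adjusted p = 0.0601). The remaining enzymes were not called, Aldh18a1 of proline synthesis at -0.12 and Shmt2 of mitochondrial glycine metabolism at 0.06.

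Among the 6 transporters 4 fell, Slc3a2, Slc1a4, Slc7a5 and Slc7a1, with log2 differences between -0.38 and -0.21. Slc3a2, the heavy chain shared by several amino acid exchangers, had 64.01, 65.9 and 59.2 in HS cells, against 83.2, 83.1 and 79.5 in NS cells (adjusted p = 4.31e-04). Slc7a5, its light chain for leucine and other large neutral amino acids, fell by 0.32 (adjusted p = 0.00577), and its dimmer second probe was not called at -0.15. Slc7a11, the light chain of the cystine and glutamate exchanger, was not called, with 0.502, 0.499 and 0.612 in HS cells, against 0.421, 0.472 and 0.553 in NS cells (0.16, adjusted p = 0.304). These groups overlapped. The glutamine carrier Slc1a5 was not called either (-0.01). The call of Slc7a1, the carrier of arginine and lysine, was lost without HS replicate 1 (-0.17), HS replicate 3 (-0.21) or NS replicate 1 (-0.15).

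Of the 9 synthetases, which charge tRNAs with their amino acids, 5 were called lower, all by less than 0.30 on the log2 scale. Aars (alanine) and Nars (asparagine) both stood at -0.29, with adjusted p of 0.00237 and 0.00183. Cars (cysteine), Gars (glycine) and Sars (serine) fell by 0.19, 0.17 and 0.14. The call of Cars was lost without HS replicate 3 (-0.17). That of Gars was lost without HS replicate 1 (-0.16), HS replicate 3 (-0.17) or NS replicate 1 (-0.11). Sars lost its call without HS replicate 1 (-0.14), 2 (-0.13) or 3 (-0.16), or NS replicate 1 (-0.09) or 2 (-0.16). Yars (tyrosine) at -0.34, Eprs (glutamate and proline) at -0.17, Mars (methionine) at -0.01 and Wars (tryptophan) at 0.04 were not called. Yars had 0.589, 0.5904 and 0.579 in HS cells, against 0.7705, 0.778 and 0.683 in NS cells, without overlap, and it was called at the same difference with only the groups compared (adjusted p = 0.00916) or only the shared slide (adjusted p = 0.00715). The second probe of Wars gave -0.14 and was not called.

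**Figure D3:**
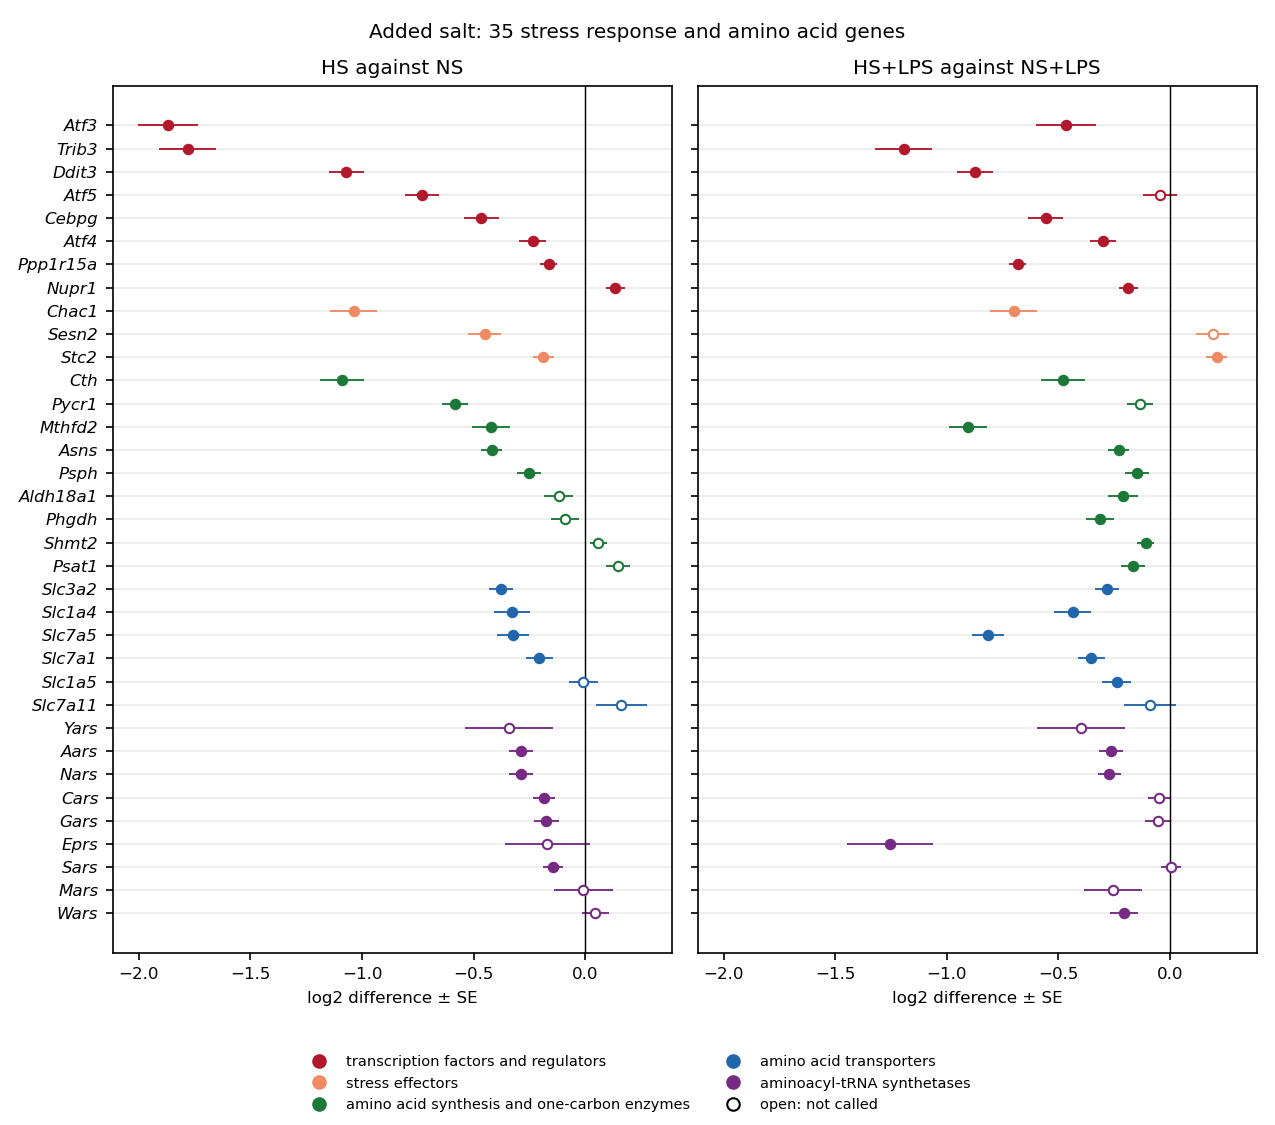
Log2 difference ± SE of the 35 tested genes for added salt with LPS absent (left, HS against NS) and with LPS present (right, HS+LPS against NS+LPS), coloured by role; filled points passed the adjusted p threshold of 0.05. On the left 24 genes are called lower and 1 higher, on the right 25 lower and 1 higher.

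Added salt in the presence of LPS again lowered most of these genes. Of the 35, 25 were called lower in HS+LPS than in NS+LPS cells, against 31.4% of all genes, and 1 was called higher, against 26.2% of all genes. The median log2 difference was -0.27 over the 35 genes and -0.04 over all genes. Salt lowered 17 of the genes in both settings. These were 70.8% of the 24 lower without LPS and 68% of the 25 lower with LPS. The 2 comparisons share no array, but 1 estimate of the spread per gene served both. Over all genes 10.5% were called lower in both, which was 56% of those lower without LPS and 33.5% of those lower with LPS. Trib3, Mthfd2, Ddit3 and Slc7a5 fell most after Eprs, a synthetase read by 1 dim probe.

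Of the regulators 7 of 8 were called lower. Trib3 had 24.2, 25.9 and 22.4 in HS+LPS cells, against 55.6, 55.8 and 54.1 in NS+LPS cells, a log2 difference of -1.19 (SE 0.13, adjusted p = 3.37e-05). Ddit3 had 8.35, 8.68 and 7.51 in HS+LPS cells, against 15.4, 14.3 and 15.2 in NS+LPS cells (-0.87, SE 0.08, adjusted p = 1.14e-05). For both genes the groups lay far apart. Ppp1r15a, which salt alone had barely moved, had 18.7, 17.7 and 18.3 in HS+LPS cells, against 28.3, 29.4 and 30.02 in NS+LPS cells (-0.68, SE 0.039, adjusted p = 5.63e-07). Atf3 had 18.8, 17.97 and 18.2 in HS+LPS cells, against 26.5, 25.3 and 24.2 in NS+LPS cells (-0.47, SE 0.13, adjusted p = 0.0129).

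Atf4 had 286, 303 and 286 in HS+LPS cells, against 363, 364 and 349 in NS+LPS cells, a log2 difference of -0.30 (SE 0.059, adjusted p = 0.00167), and its dimmer probe gave -0.67. With its probes averaged Atf4 stood at -0.48. Cebpg had 1.76, 1.84 and 1.55 in HS+LPS cells, against 2.67, 2.55 and 2.35 in NS+LPS cells (-0.56, adjusted p = 1.85e-04). Nupr1, which had been the only gene called higher with salt alone, was lower here (-0.19, adjusted p = 0.00409). Atf5 was not called, with 58.6, 57.6 and 54.4 in HS+LPS cells, against 55.3, 56.3 and 64.7 in NS+LPS cells (-0.04), and its groups overlapped.

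The 3 effectors parted. Chac1 had 18.4, 17.98 and 16.1 in HS+LPS cells, against 26.8, 27.8 and 30.6 in NS+LPS cells (-0.70, SE 0.11, adjusted p = 3.12e-04). Stc2 rose, with 18.7, 18.02 and 18.9 in HS+LPS cells, against 16.5, 15.5 and 16.1 in NS+LPS cells (0.21, adjusted p = 0.00357), the single gene called higher. With normexp background correction Stc2 was not called, at 0.10. Sesn2 missed the threshold, with 10.6, 9.604 and 8.86 in HS+LPS cells, against 7.83, 8.55 and 9.06 in NS+LPS cells (0.19, adjusted p = 0.0508), and was called higher without HS+LPS replicate 3 (0.25) or NS+LPS replicate 3 (0.24) and under 5 other settings (0.19 to 0.22).

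Of the 9 enzymes 8 were called lower, most by small steps. Mthfd2 had 7.78, 9.27 and 10.2 in HS+LPS cells, against 16.9, 16.5 and 17.3 in NS+LPS cells (-0.90, SE 0.086, adjusted p = 1.48e-05), a wide gap. Cth had 14.6, 15.7 and 13.9 in HS+LPS cells, against 21.8, 20.2 and 19.7 in NS+LPS cells (-0.48, adjusted p = 0.00214), and its second probe gave -0.74. Asns had 177, 186 and 175 in HS+LPS cells, against 212, 212 and 207 in NS+LPS cells (-0.23, adjusted p = 0.00218). Phgdh, the first enzyme of serine synthesis, was lower by 0.31 on its brightest probe. Its 2 probes on chromosome 3 gave -0.27 (adjusted p = 0.000931) and -0.12 (not called). Pycr1 was not called (-0.14), but it was with quantile normalization or the deposited table, or without NS+LPS replicate 2 (all -0.17).

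The calls of 4 enzymes were lost under single alternatives. Aldh18a1 (-0.21) was not called without HS+LPS replicate 3 (-0.14) or NS+LPS replicate 3 (-0.17). Psat1 (-0.17) was not called without HS+LPS replicate 1 (-0.14) or NS+LPS replicate 1 or 3 (both -0.15), and its second probe gave 0.10. Psph (-0.15) was not called without HS+LPS replicate 1 (-0.10) or NS+LPS replicate 1 (-0.13) or 3 (-0.15), and under quantile normalization it stood at -0.08. Shmt2 (-0.11) was not called without HS+LPS replicate 1 (-0.09) or 3 (-0.10), or NS+LPS replicate 2 or 3 (both -0.10).

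Of the transporters 5 of 6 were called lower. Slc7a5 had 2.24, 2.54 and 2.404 in HS+LPS cells, against 3.999, 4.03 and 4.62 in NS+LPS cells (-0.81, SE 0.072, adjusted p = 8.86e-06), and its second probe gave -0.82. Slc1a4, a carrier of alanine, serine and cysteine, had 1.64, 1.83 and 1.51 in HS+LPS cells, against 2.19, 2.31 and 2.21 in NS+LPS cells (-0.44, adjusted p = 0.0012). Slc7a1 had 61.7, 62.2 and 57.4 in HS+LPS cells, against 73.96, 78.7 and 78.7 in NS+LPS cells (-0.35, adjusted p = 5.85e-04). None of these groups overlapped. Slc3a2 and Slc1a5 fell by 0.28 and 0.24, the second of them only on its brightest probe, since the other gave -0.03. Slc7a11 was again not called, with 2.06, 1.68 and 1.99 in HS+LPS cells, against 2.08, 2.03 and 1.97 in NS+LPS cells (-0.09, adjusted p = 0.529).

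Of the synthetases 4 of 9 were called lower. Aars and Nars both stood at -0.27, and Wars at -0.21, a call that was lost without NS+LPS replicate 2 (-0.17) or 3 (-0.18). Eprs showed the widest fall of any gene here, with 0.256, 0.265 and 0.153 in HS+LPS cells, against 0.598, 0.487 and 0.483 in NS+LPS cells (-1.25, SE 0.19, adjusted p = 3.50e-04). The difference was -0.74 with normexp background correction. HS+LPS replicate 3 lay below the other HS+LPS arrays for Eprs and for Mars, which had 9.09, 9.64 and 6.28 in HS+LPS cells, against 9.59, 9.87 and 9.91 in NS+LPS cells, and above them for Yars, which had 0.548, 0.468 and 0.931 in HS+LPS cells, against 0.787, 0.871 and 0.798 in NS+LPS cells. Neither Mars (-0.26) nor Yars (-0.40) was called, but Mars was called without HS+LPS replicate 2 (-0.37) or with normexp background correction (-0.40) and Yars without HS+LPS replicate 3 (-0.69). Cars (-0.05), Gars (-0.05) and Sars (0.01) were not called. Cars was called lower with normexp background correction (-0.19, adjusted p = 0.0101), and Gars with quantile normalization or the deposited table (both -0.18).

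LPS without added salt raised most of these genes. Of the 35, 27 were called higher in NS+LPS than in NS cells, against 28.6% of all genes, and 1 was called lower, against 35.1% of all genes. The median log2 difference was 0.43 over the 35 genes and -0.03 over all genes. Cth, Ppp1r15a, Ddit3 and Slc7a11 rose by more than 4-fold. This comparison shares its NS arrays with the comparison of HS and NS cells, so a low or high NS array moves both.

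Among the regulators 7 of 8 rose. Ppp1r15a averaged 29.2 ± 0.855 in NS+LPS cells and 6.05 ± 0.138 in NS cells (SD, n = 3 each), 4.83-fold higher (adjusted p = 1.16e-11). Ddit3 averaged 14.97 ± 0.567 in NS+LPS cells and 3.14 ± 0.253 in NS cells, 4.77-fold higher (adjusted p = 2.72e-09). Nupr1 had 54.99, 53.1 and 54.8 in NS+LPS cells, against the 17.8 to 19.1 in NS cells, a log2 difference of 1.55 (SE 0.043, adjusted p = 4.39e-10). For all 3 genes the groups lay far apart. Trib3 was 2.39-fold higher and Cebpg 1.62-fold higher, while Atf5 and Atf4 were higher by 0.47 and 0.43 on the log2 scale. Atf3 was not called, with means of 25.3 in NS+LPS cells and 20.9 in NS cells (0.28, adjusted p = 0.0903). Its groups did not overlap, at 24.2 to 26.5 in NS+LPS cells and 19.7 to 22.5 in NS cells, and the same difference was called with only the groups compared (adjusted p = 0.0106).

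The effectors all rose, Stc2 by 0.85, Chac1 by 0.82 and Sesn2 by 0.35 on the log2 scale. Of the enzymes 6 of 9 rose and 1 fell. Cth averaged 20.6 ± 1.07 in NS+LPS cells and 2.63 ± 0.212 in NS cells, a 7.81-fold difference (log2 difference 2.97, SE 0.098, adjusted p = 1.68e-09) that exceeded every other gene of the 35. Psph had 34.9, 33.1 and 33.5 in NS+LPS cells, against 20.8, 19.01 and 18.9 in NS cells (0.79, adjusted p = 3.51e-07). Asns averaged 210.3 in NS+LPS cells and 135 in NS cells (0.64, adjusted p = 7.80e-07), again without overlap. Mthfd2 rose by 0.44, Aldh18a1 by 0.21 and Psat1 by 0.20, while Shmt2 fell by 0.10 and Phgdh (-0.10) and Pycr1 (0.06) were not called. Phgdh was called lower with quantile normalization or the deposited table (both -0.20). Aldh18a1 lost its call without NS replicate 1 (0.18) or NS+LPS replicate 3 (0.17). Shmt2 lost its call without NS replicate 1 (-0.08) or 3 (-0.11), or NS+LPS replicate 1 (-0.09), 2 or 3 (both -0.11).

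Of the transporters 5 of 6 rose. Slc7a11 averaged 2.02 ± 0.0555 in NS+LPS cells and 0.482 ± 0.0663 in NS cells, 4.23-fold higher (adjusted p = 7.77e-08). Its heavy chain Slc3a2 rose by 0.47, and Slc7a1, Slc1a4 and Slc1a5 by 0.26, 0.24 and 0.22. Slc1a4 was not called without NS replicate 2 (0.16) or NS+LPS replicate 2 (0.22), and Slc1a5 was not called without NS replicate 3 (0.19). The leucine carrier Slc7a5 was not called (0.01, adjusted p = 0.889). Of the synthetases 6 of 9 rose, and Sars led them with 149.6, 149.98 and 151 in NS+LPS cells, against 88.4, 80.6 and 78.1 in NS cells (0.87, adjusted p = 5.31e-08). Aars, Cars, Nars, Wars and Gars rose by 0.36 to 0.54, and the second probe of Wars gave 0.68. Eprs (0.41), Yars (0.14) and Mars (-0.18) were not called. Eprs was called higher with normexp background correction (0.35, adjusted p = 0.00581), only the groups compared (0.41, adjusted p = 0.0114) or only the shared slide (0.47, adjusted p = 0.016). Mars was called lower with only the groups compared (-0.18, adjusted p = 0.0287) or only the shared slide (-0.19, adjusted p = 0.0272).

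**Figure D4:**
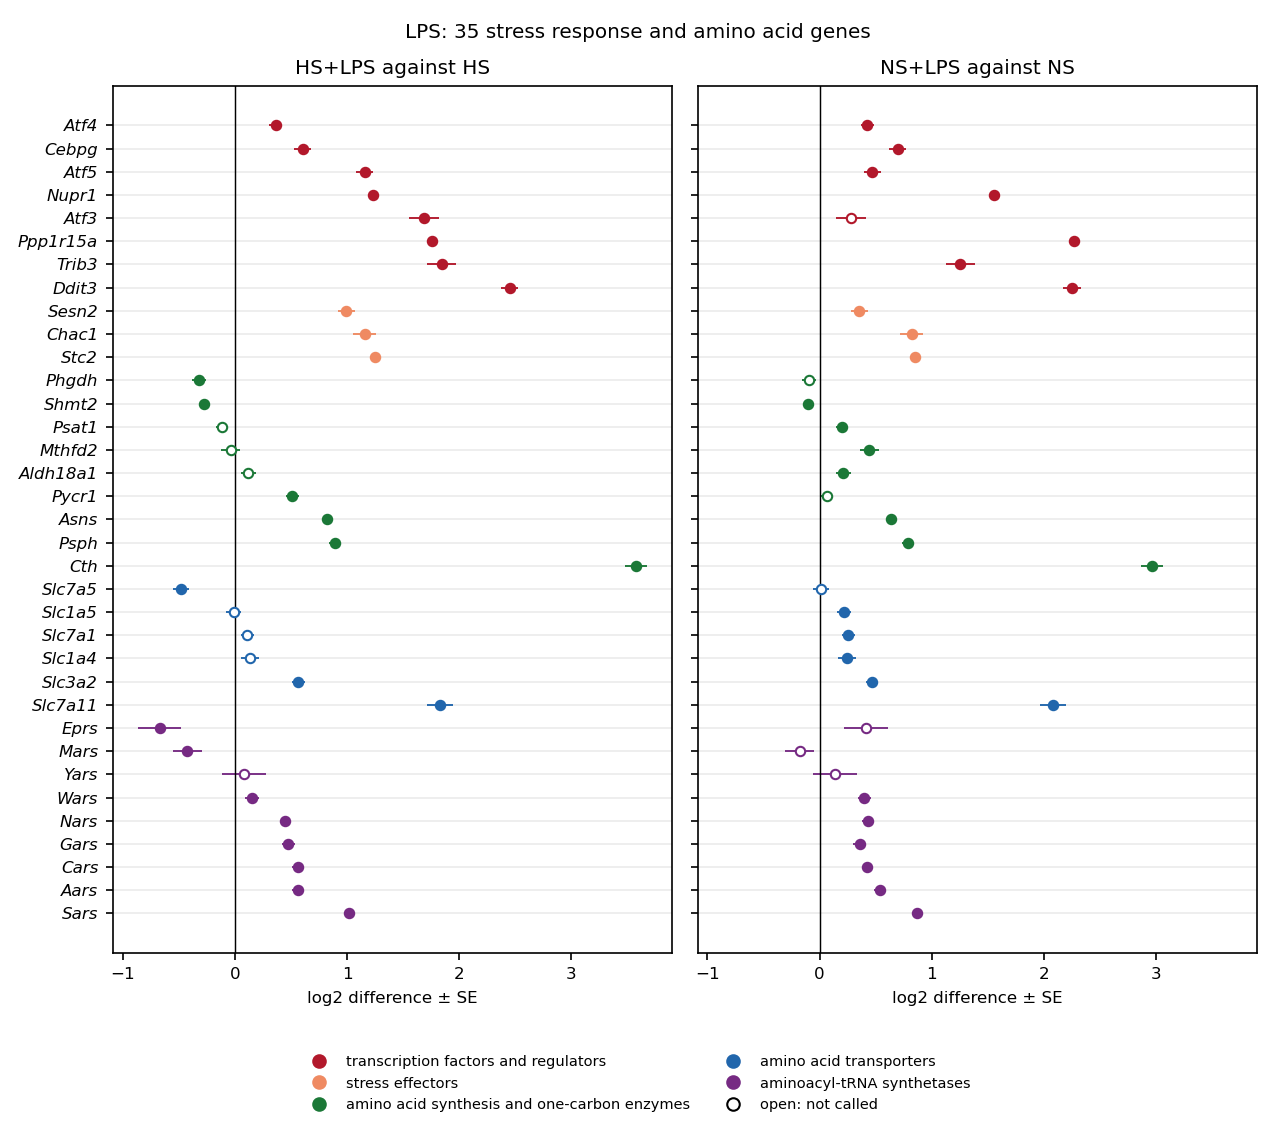
Log2 difference ± SE of the 35 tested genes for LPS in the presence of added salt (left, HS+LPS against HS) and without it (right, NS+LPS against NS), coloured by role; filled points passed the adjusted p threshold of 0.05. On the left 23 genes are called higher and 5 lower, on the right 27 higher and 1 lower, with Cth farthest to the right in both.

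LPS in the presence of added salt raised 23 of the 35 genes, against 30.5% of all genes called higher, and lowered 5, against 41.8% of all genes called lower. The median log2 difference was 0.56 over the 35 genes and -0.11 over all genes, and cyclic loess normalization moved the median of all genes to 0.03. LPS raised 21 of the genes in both settings. These were 91.3% of the 23 raised with added salt and 77.8% of the 27 raised without it. These comparisons share no array, but again 1 estimate of the spread per gene served both. Over all genes 22.5% were called higher in both, which was 73.8% of those raised with added salt and 78.6% of those raised without it. All 8 regulators and all 3 effectors rose.

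Cth was 11.9-fold higher (mean 14.7 in HS+LPS cells and 1.24 in HS cells, adjusted p = 4.16e-10). Ddit3 was 5.46-fold higher (mean 8.18 in HS+LPS cells and 1.498 in HS cells, adjusted p = 1.50e-09). Trib3, Slc7a11, Ppp1r15a and Atf3 were 3.59-fold, 3.55-fold, 3.37-fold and 3.21-fold higher. Atf3 averaged 18.3 ± 0.433 in HS+LPS cells and 5.81 ± 1.37 in HS cells (SD, n = 3 each). Stc2, Nupr1, Atf5, Chac1, Sars and Sesn2 rose by 0.99 to 1.25 on the log2 scale. Atf4 rose by 0.36 (adjusted p = 2.57e-04).

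The 5 genes that fell were Eprs (-0.67), Slc7a5 (-0.48), Mars (-0.42), Phgdh (-0.32) and Shmt2 (-0.27). Slc7a5 averaged 2.396 ± 0.147 in HS+LPS cells and 3.34 ± 0.158 in HS cells, without overlap. Without HS+LPS replicate 3 the falls of Eprs and Mars were -0.41 and -0.23, and Eprs was not called under cyclic loess normalization (-0.47). The rise of Wars (0.15) was lost when any 1 of the 6 arrays was left out, at 0.13 to 0.16, while its second probe was called at 0.57 (adjusted p = 6.74e-06). Aldh18a1 (0.12) was called without HS+LPS replicate 3 (0.19) or with cyclic loess normalization (0.24). Yars (0.08) was not called, but without HS+LPS replicate 3 it stood at -0.21 (adjusted p = 0.0437). Of the remaining genes, Pycr1 rose by 0.51, Asns by 0.83 and Psph by 0.90, and Mthfd2 (-0.04) and Psat1 (-0.11) were not called. Psat1 was called lower with normexp background correction (-0.17), quantile normalization or the deposited table (both -0.13), while its second probe was called higher (0.26, adjusted p = 0.0181). The dimmer probe of Pycr1 gave 0.22 and was not called, and neither was the mean of its probes (0.37). Of the transporters not called, Slc1a4 rose with cyclic loess normalization (0.26), Slc7a1 with cyclic loess (0.15), quantile normalization or the deposited table (both 0.12), and Slc1a5 on its second probe (0.24).

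Over the 4 groups, the NS+LPS group had the highest mean for 29 genes, the HS+LPS group for 3, the HS group for 1 and the NS group for 2. The HS group had the lowest mean for 24 genes, the HS+LPS group for 7 and the NS group for 4. Neighbours in this order did not always differ: Sars averaged 151 ± 1.07 in HS+LPS cells and 150.1 ± 0.659 in NS+LPS cells, and Trib3 24.2 in HS+LPS cells and 23.1 in NS cells, a pair of groups that was not tested.

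The interaction asks whether the difference made by salt was the same with LPS as without it. It was called positive for 8 of the 35 genes (22.9%, beside 17.4% of all genes) and negative for 8 (22.9%, beside 18.8%). Both counts were near the shares of all genes. A positive value means that salt lowered the gene less, or raised it more, in the presence of LPS. The median of the 35 was -0.06, beside -0.03 over all genes. Normalization shifted this balance over all genes, from 48.0% of calls positive as reported to 58.2% with quantile and 61.2% with cyclic loess normalization.

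Atf3 had the widest positive interaction, 1.40 (SE 0.19, adjusted p = 4.52e-04): salt lowered it by 1.87 without LPS and by 0.47 with LPS. Atf5 (0.69), Sesn2 (0.64), Cth (0.61), Trib3 (0.59), Pycr1 (0.45), Stc2 (0.40) and Asns (0.19) followed. For Sesn2 and Stc2 salt lowered the gene without LPS, and with LPS the values were 0.19 (not called) and 0.21 (called). The second probe of Cth gave 0.28 and was not called. The Trib3 call was lost without HS+LPS replicate 1 (0.59) or 2 (0.54), NS+LPS replicate 1 (0.59), 2 (0.60) or 3 (0.57), or NS replicate 1 (0.55). The Asns call was lost when any 1 array other than HS replicate 2 or NS replicate 3 was left out, at 0.16 to 0.21.

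Negative interactions were those of Eprs (-1.08), Ppp1r15a (-0.52), Slc7a5 (-0.49), Mthfd2 (-0.48), Nupr1 (-0.32), Psat1 (-0.31), Wars (-0.25) and Shmt2 (-0.17). Ppp1r15a had the smallest adjusted p of the 35, 1.11e-04. Eprs stood at -0.64 with normexp background correction. The Wars call was lost when any 1 array other than NS replicate 1 or NS+LPS replicate 1 was left out, at -0.28 to -0.19. The Shmt2 call was lost when any 1 array other than HS+LPS replicate 2, NS+LPS replicate 1 or NS replicate 1 was left out, at -0.17 to -0.15. With the probes of a gene averaged, Psat1 (-0.18) and the positive Pycr1 (0.76) were not called. For Atf4 the brightest probe gave -0.06 and was not called, while its second probe gave -0.32 (adjusted p = 0.0121). Ddit3 (0.20) and Chac1 (0.34) were not called, and Chac1 was called without HS replicate 2 (0.44). Calls were also gained by Cars, Gars and Sars (0.16 to 0.20) and by Phgdh and Yars (-0.35 to -0.21) under single alternatives.

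**Figure D5:**
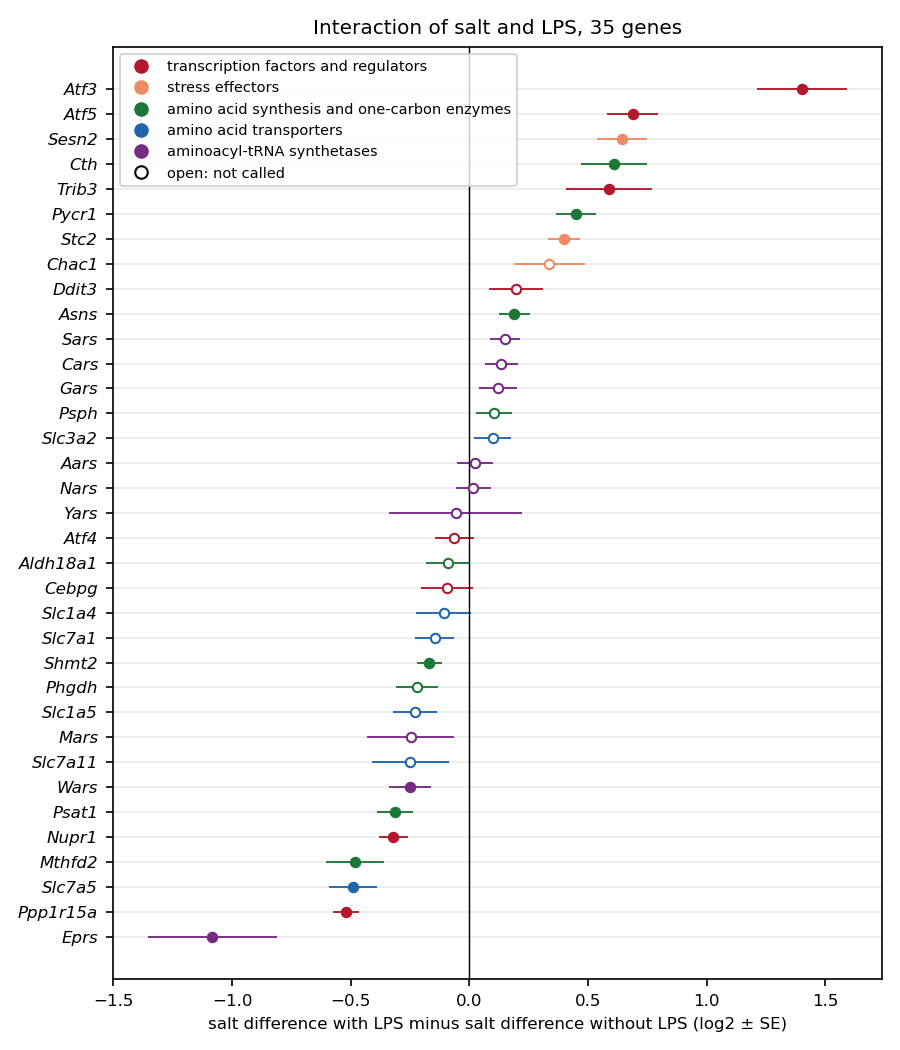
Interaction of salt and LPS for the 35 tested genes, as the log2 difference made by salt with LPS minus that without LPS (± SE), coloured by role; filled points passed the adjusted p threshold of 0.05. The 8 positive calls run from 0.19 to 1.40 and the 8 negative calls from -1.08 to -0.17.

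Other genes of the same pathways, from lists chosen with earlier results of these arrays in view, did not all move alike. Of 17 further ATF4 targets tested, salt without LPS lowered 7 (41.2%, beside 18.8% of all genes) and raised 3 (17.6%, beside 18.2%). Gdf15, a secreted stress cytokine, averaged 0.529 ± 0.0588 in HS cells and 2.02 ± 0.165 in NS cells (-1.93, SE 0.082, adjusted p = 7.18e-07). Aldh1l2, a mitochondrial folate enzyme, fell by 0.99 (adjusted p = 1.13e-04), and Gpt2, an alanine aminotransferase, by 0.64. Slc38a2, a neutral amino acid transporter that in mammalian cells is also induced by hypertonicity, rose instead, with a mean of 62.8 in HS cells and 38.6 in NS cells (0.70, SE 0.075, adjusted p = 7.06e-05). With LPS present, salt raised 5 of the 17 and lowered 5 (29.4% each), near the 26.2% and 31.4% of all genes. Gdf15 was then higher (0.84), as were Ddit4, an mTORC1 inhibitor (1.59), and Vegfa, an angiogenic growth factor (0.86). The log2 differences of the 17 ran from -0.81 to 1.59, with a median of -0.07 beside -0.04 over all genes. LPS without added salt raised 12 of the 17 (70.6%, beside 28.6% of all genes) and lowered 3 (17.6%, beside 35.1%), and with added salt it raised 12 (70.6%, beside 30.5%) and lowered 1 (5.88%, beside 41.8%).

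Of the 11 cytosolic synthetases outside the 9 described, salt without LPS lowered 2 (18.2%, beside 18.8% of all genes) and raised 3 (27.3%, beside 18.2%). LPS without added salt raised 8 (72.7%, beside 28.6%) and lowered 1 (9.09%, beside 35.1%). Of 16 mitochondrial synthetases, LPS lowered 10 (62.5%, beside 35.1% of all genes) and raised 2 (12.5%, beside 28.6%) without added salt, and lowered 13 (81.2%, beside 41.8%) and raised 0 with it. Among these Vars2 fell by 0.95 and Aars2 by 0.83 without added salt. The cytosolic and mitochondrial enzymes thus gave counts in opposite directions for LPS, a contrast that was not tested. Of 14 endoplasmic reticulum chaperones and related genes, salt without LPS raised 2 and lowered 2 (14.3% each, beside 18.2% and 18.8% of all genes). Xbp1, a transcription factor of the unfolded protein response, averaged 136 in HS cells and 91.96 in NS cells (0.57, SE 0.047, adjusted p = 1.56e-05). LPS without added salt raised 9 of the 14 (64.3%, beside 28.6% of all genes) and lowered 4 (28.6%, beside 35.1%), with Dnajb9, an endoplasmic reticulum co-chaperone, at 1.69.

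Of 8 genes for the eIF2 kinases, their regulators and the eIF2 phosphatase, salt without LPS lowered 2 (25%) and raised 1 (12.5%). These counts were near the shares of all genes, and the differences were no more than 0.28 on the log2 scale. LPS without added salt raised 3 of the 8 and lowered 3 (37.5% each, beside 28.6% and 35.1% of all genes). With added salt it raised 4 and lowered 4 (50% each, beside 30.5% and 41.8%). Eif2ak2, the kinase PKR that senses double-stranded RNA, rose most with LPS, by 2.22 without added salt and by 2.26 with it. These are RNA levels, and the phosphorylation of eIF2 was not measured. Of 4 further genes of transsulfuration and glutathione synthesis, salt without LPS raised 1 and lowered 1 (25% each, beside 18.2% and 18.8% of all genes). LPS without added salt raised 2 of the 4 and lowered 2 (50% each, beside 28.6% and 35.1%), from -1.44 to 0.87. Cbs, which makes the cystathionine that Cth cleaves, averaged 5.25 ± 0.0601 in HS cells and 4.04 ± 0.343 in NS cells (0.38, adjusted p = 7.18e-04). It moved against Cth with LPS too, with means of 1.49 in NS+LPS cells and 4.04 in NS cells (-1.44). Of 9 further serine, glycine and one-carbon genes, salt without LPS raised 2 and lowered 2 (22.2% each), again near the shares of all genes.

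Genes with and without CARE letters in the promoter window were set side by side as a description. For salt without LPS the median log2 difference was -0.34 over the 11 tested genes with the letters and -0.20 over the 18 without. For salt with LPS both medians were -0.27. For LPS the medians were 0.54 with the letters and 0.44 without them in cells without added salt, and 0.83 with them and 0.47 without them in cells with added salt.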

How the data were processed

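Scanner files of 12 arrays were used, 3 for each of 4 groups taken from the sample titles. Per the file headers, the deposited values are intensity in linear, arbitrary units, background subtracted within each array by Agilent Feature Extraction 10.7.3.1. Other columns flag outliers, saturation and detection as 0 or 1 per spot, per the file headers. The deposited value table, used as an alternative, also holds intensity, and how it was normalized is not given in the sources used here.

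From the 59305 non-control spots, log2 of the processed signal was taken minus the 75th percentile of the array. Outlier spots were left out (10 probes lost their value on an array), 0 spots were saturated, and replicate spots were averaged, giving 55681 probes. Probes had to be flagged well above background throughout at least 1 group (3 arrays), and the brightest passing probe stood for each of 13860 genes. Symbols and accessions are those of the array annotation, with probe coordinates on mm9. A linear model over all 12 arrays was fitted in R 4.3.3 with limma 3.58.1, leaving 8 residual degrees of freedom. Calls were made at a Benjamini-Hochberg adjusted p under 0.05 in 2-sided moderated tests, with adjustment across the 13860 genes tested. Values of further probes of a gene came from the same model fitted to all 18846 passing probes, with adjustment across those probes. The fit was checked on simulated data. Precision is limited by the 3 arrays per group. With so few arrays, groups can lie apart without a true difference. Overlap of groups is given as a description and was not counted over all genes.

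The 36 genes and the other lists were chosen with earlier results of these data known. All 36 are accounted for. Values per array are given for up to 12 called genes per comparison with the largest differences, and for Atf4, Ddit3, Trib3, Asns, Chac1 and Slc7a11 in any case. Up to 4 called genes of each other list could be named. Alternatives covered background correction, normalization, the deposited table, filters, probe choice, replicate and slide blocks, the arrays fitted and leaving out each array. The use of a probe with a RefSeq accession was added after seeing the data. Motif letters were searched with Python 3.11.15 in RefSeq promoter windows on GRCm38.p6. Figures were drawn with matplotlib 3.10.9.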

Additional observations from a re-analysis of the deposited data

Results flagged for a closer look

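For 16 genes the salt difference with LPS differed from that without LPS by the interaction test (limma, adjusted p under 0.05). Of the 35 genes tested 8 were called positive (22.9%, beside 17.4% of all genes) and 8 negative (22.9%, beside 18.8%). Both counts were near the shares of all genes. The calls of Trib3, Pycr1, Asns, Psat1, Wars and Shmt2 did not hold under all alternatives. Positive log2 values were found for Atf3 (1.40), Atf5 (0.69), Sesn2 (0.64), Cth (0.61), Trib3 (0.59), Pycr1 (0.45), Stc2 (0.40) and Asns (0.19). Negative values were found for Eprs (-1.08), Ppp1r15a (-0.52), Slc7a5 (-0.49), Mthfd2 (-0.48), Nupr1 (-0.32), Psat1 (-0.31), Wars (-0.25) and Shmt2 (-0.17). The salt difference changed direction with both values called for Stc2 and Nupr1. Stc2 was lower without LPS and higher with it, and Nupr1 higher without LPS and lower with it. The Nupr1 call without LPS was lost under 10 of 18 alternatives, and the Stc2 call with LPS under 1 of 17. The HS+LPS arrays that enter every one of these values were on a slide of their own, whose part in them cannot be told apart from that of the treatment.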

How the results depend on the processing

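Calls held under all alternatives for 19 of the 25 genes called between HS and NS cells, 19 of 26 between HS+LPS and NS+LPS cells, 24 of 28 between NS+LPS and NS cells, 24 of 28 between HS+LPS and HS cells, and 10 of 16 for the interaction. The number called lower ranged from 20 to 25 for salt without LPS and from 20 to 27 for salt with LPS, and the number called higher from 26 to 29 for LPS without added salt and from 22 to 26 with it. The counts of 1 were the least stable. The 1 gene higher with salt alone became 0 with cyclic loess, no filter, normexp, only the groups compared, the shared slide or the replicate block, and 2 with genes above background on all 12 arrays. Leaving out 1 array gave 0 to 2. The 1 gene higher with salt in the presence of LPS became 0 with normexp and 2 with cyclic loess, quantile normalization, the deposited table, the slide as a random block or genes above background on all 12 arrays, and 1 to 2 when 1 array was left out. The 1 gene lower with LPS alone became 0 with no filter, normexp or the replicate block and 2 with quantile normalization or the deposited table, and 0 to 1 when 1 array was left out. The median over the 35 genes for salt without LPS was -0.30 with cyclic loess and -0.31 with quantile normalization or the deposited table. For salt with LPS it was -0.29 to -0.22 when 1 array was left out, and for LPS with added salt 0.47 with normexp. The interaction median changed sign with cyclic loess (0.0170) and ranged from -0.0654 to 0.00829 when 1 array was left out. For Yars, LPS with added salt gave -0.21 without HS+LPS replicate 3, where leave-one-out values ran from -0.21 to 0.29. The causes were not tested. Cyclic loess also turned the share of calls that were higher in HS+LPS against HS cells over all genes to 54.4%, from 42.2%. The labels do not say whether replicate numbers pair the arrays. Same-numbered arrays of different groups had deviations that correlated between -0.20 and 0.12, with 2 of 18 pairs over 0.1. For arrays with different numbers the correlations lay between -0.15 and 0.23, with 4 of 36 pairs over 0.1. With 3 arrays per group these values cannot settle whether cultures were paired. The replicate block moved no other count of calls by over 1.5 times, and with it salt without LPS lowered 23 of the 35 genes. Dim probes such as those of Eprs, Yars and Pycr1 limit what can be said of these genes.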

Other observations

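Of 9 genes of serine, glycine and one-carbon metabolism beyond those of the amino acid response, 3 were called higher (33.3%) and 4 lower (44.4%) in NS+LPS than in NS cells, beside 28.6% and 35.1% of all genes. Tyms (-0.84) and Mthfd1 (-0.35), which serve nucleotide synthesis, were among those that fell. With added salt 5 of the 9 were called higher (55.6%) and 4 lower (44.4%) in HS+LPS than in HS cells, beside 30.5% and 41.8% of all genes. Gldc, a subunit of the glycine cleavage system, was higher in HS+LPS than in NS+LPS cells (1.11, adjusted p = 4.53e-05).

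Among further ATF4 targets, LPS without added salt raised Nfil3, a transcriptional regulator (1.49), and Slc6a9, a glycine transporter (0.91). Of the 9 macrophage markers measured, 5 were called higher (55.6%) and 3 lower (33.3%) in NS+LPS than in NS cells. The shares of all genes were 28.6% and 35.1%. In HS+LPS against NS+LPS cells 4 of the 9 were higher and 4 lower (44.4% each, beside 26.2% and 31.4% of all genes). Their median log2 difference there was 0.13. Fcgr1, a high-affinity receptor for IgG, rose with LPS (2.06) and was lower in HS+LPS than in NS+LPS cells (-1.42, adjusted p = 7.32e-08).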
